A study of Mus musculus with 6 samples.

Results

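The genes of oxidative phosphorylation encode the respiratory chain of mitochondria and the ATP synthase that it drives. They were described here in KYSE30, a long-established line of human esophageal squamous carcinoma cells. All cells carried the genotype given as WT. They were either untreated, the Control group of 3 libraries, or stimulated with 100 uM acetylcholine (ACh), the ACh group of 3 libraries, and both groups were taken at 4 h. Acetylcholine is a neurotransmitter that acts on muscarinic and nicotinic receptors. The deposited table held 4195 genes, each with an unadjusted p under 0.05 in the authors' own comparison of the groups, and genes outside it have no value here. Members were the rows on the mitochondrial chromosome and the protein-coding rows whose symbols name respiratory complex subunits, cytochrome c, or assembly factors with the NDUF or COX prefix. That gave 51 of the 4195 genes, 15 encoded in the mitochondrial genome and 36 in the nucleus. The labels give mouse as the organism, while 4183 of the 4195 gene identifiers in the table are those of human genes.

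Oxidative phosphorylation passes electrons from NADH and succinate through complexes I, II, III and IV to oxygen, with coenzyme Q and cytochrome c as carriers, and the proton gradient that results drives complex V, the ATP synthase. Complexes I, III, IV and V are built from subunits of both genomes, complex II from nuclear subunits alone. The mitochondrial genome is read from each strand as a long precursor RNA. The transfer RNAs that lie between its genes are cut out, which releases the messenger and ribosomal RNAs.

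The values are normalised read counts, which are read counts per gene that the authors divided by one factor per library. The listed genes held between 11258647 and 14453391 recovered reads per Control library and between 9420144 and 10036897 per ACh library, so every ACh library was the shallower in these genes. The total depth is unknown. Each fold change is ACh minus Control, between means of log2(value + 1), and was tested with limma and adjusted by Benjamini-Hochberg over the 4195 genes. A gene is said to have risen or fallen where both this adjusted p and the adjusted p in the authors' deposited table were under 0.05. The text gives, beside the results, 2 alternatives that ended calls, which are scaling to equal totals over the listed genes and removing the trend with GC content from each library. Both tests use the same 6 libraries, and the table had been selected for a difference, so limma alone called 99.6% of it. Of the squamous markers looked for, TP63 (log2 fold change 0.23) and SFN (-0.26) were listed, with Control means of 1711 and 9213 normalised reads, and the keratin genes KRT5, KRT14 and KRT6A have no value here. Of the markers of other cell types, 1 of 5 for fibroblasts (COL1A1), 1 of 5 for leukocytes (LAPTM5) and 1 of 4 for endothelium (EGFL7) were listed, at Control means of 177, 19.6 and 1064 and ACh means of 139, 39.6 and 879. Their part in the results was not tested. The labels do not say whether replicates came from separate cultures, so the spread between them may be technical.

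Most of the listed oxidative phosphorylation genes were lower in ACh, by small amounts. Of the 51 members 32 fell and 5 rose, and the other 14 did not pass both tests. Among all genes listed, 63.8% of genes passed both tests, 35.0% lower and 28.8% higher. The median log2 fold change was -0.24 for the 15 mitochondrially encoded members and -0.17 for the 36 nuclear members, against -0.10 for all listed genes. In 46 of the 51 members the Control and ACh values did not overlap, as in 93.0% of the table. The members that were listed had already passed the authors' p, so these counts say nothing of the genes of the pathway that are not listed.

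Mitochondrial transcripts took a smaller share of the listed reads in ACh. The 15 mitochondrially encoded genes made up 8.64%, 9.32% and 8.46% of the normalised reads of all listed genes in Control and 8.26%, 7.89% and 7.74% in ACh. The groups did not overlap, with a gap smaller than the spread within Control. The 36 nuclear members together made up 0.664%, 0.649% and 0.653% in Control and 0.648%, 0.632% and 0.626% in ACh, also without overlap. The ratio of the 10 mitochondrial protein genes to the nuclear members was 11.3, 12.5 and 11.1 in Control and 11.0, 10.8 and 10.6 in ACh. These sums hold only genes listed for a difference between these same libraries, most of them with lower means in ACh. The lack of overlap is thus in part a product of that selection, and the unlisted genes of the pathway are not in the sums. In RNA from a whole culture, less of a transcript in each cell and fewer cells that hold it cannot be told apart.

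**Figure D1:**
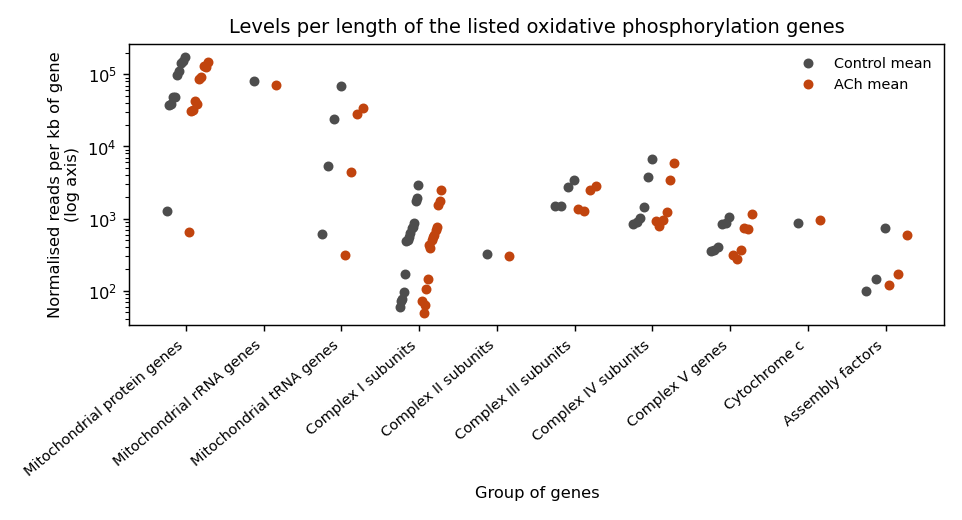
Mean normalised reads per kb of gene (log axis) for the members by group of genes, with Control in grey and ACh in red and a point per gene. The mitochondrial protein genes, apart from MT-ATP8 at 1261 reads per kb in Control, lie above every nuclear member.

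Most mitochondrially encoded genes stood above the nuclear members in level per length. Per kb of the gene length given in the file, MT-CO1, the catalytic core of complex IV, had the highest level at 175740.1 normalised reads per kb in Control, and the lowest mitochondrial messenger was MT-ATP8 at 1261. The highest nuclear member was COX8A, a small subunit of complex IV, at 6727 reads per kb. MT-TR (607), MT-ATP8 and MT-TP (5416) lay below that level and the other 12 mitochondrially encoded genes above it. Among the nuclear groups the median Control level per kb was 2104 for complex III, 1239 for complex IV, 617 for complex V and 546 for complex I. NDUFA5 was the lowest of all members at 59.6 reads per kb. Its length in the file was 9851 bases, and its Control mean of 587 normalised reads was above the 342 of NDUFA11. How the file defines gene length is not given in the sources used here, and these ranks and medians depend on it.

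Of the messenger RNAs of the mitochondrial genome 10 were listed, and all 10 had lower means in ACh. MT-ATP8, MT-ND3, MT-CO2, MT-ND1, MT-CYB, MT-CO1 and MT-ND4 fell, and MT-ATP6, MT-ND2 and MT-CO3 did not pass both tests. Their median log2 fold change was -0.24. The complex I genes MT-ND4L, MT-ND5 and MT-ND6 have no value here. Nuclear copies of mitochondrial genes can share their reads, so these values carry that uncertainty.

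The mitochondrial subunits of complex I belong to the membrane arm that pumps protons. MT-ND1 (ENSG00000198888, mitochondrial positions 3307 to 4262) had 34803, 38746 and 35465 normalised reads in the Control libraries and 32425, 28967 and 28123 in the ACh libraries. Every ACh library was below every Control library, and MT-ND1 fell by 0.29 on the log2 scale (SE 0.05, limma adjusted p = 0.000118). MT-ND3 had 16278, 18421 and 16193 in Control and 14248, 11741 and 14159 in ACh. It fell by 0.35 (SE 0.06), the largest fall of a mitochondrial complex I gene, with ACh replicate 2 the lowest of the 6 libraries. MT-ND4, with 149517, 165588 and 142063 in Control against 135579, 129513 and 121350.4 in ACh, fell by 0.24 (SE 0.07). MT-ND2 had 49621, 54834 and 47408 in Control and 47312, 44821 and 40865 in ACh. For this gene the highest ACh and the lowest Control library almost met, and its log2 fold change of -0.19 did not pass the authors' adjusted p (0.102 in the authors' deposited table).

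Cytochrome b, encoded by MT-CYB (ENSG00000198727, 14747 to 15887), is the mitochondrial subunit of complex III and carries electrons through the membrane. It had 43081, 45450.5 and 43088 normalised reads in Control and 39317, 36574 and 35337 in ACh. The groups stood apart, and MT-CYB fell by 0.24 (SE 0.05, limma adjusted p = 0.000193). The adjusted p for this gene, 2.85e-09, as the authors' deposited table gives it, was the lowest of the mitochondrial messenger RNAs.

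The catalytic core of complex IV, which reduces oxygen, is encoded by MT-CO1, MT-CO2 and MT-CO3. MT-CO1 (ENSG00000198804, 5904 to 7445), the most abundant member, had 262443, 292836 and 257695 normalised reads in Control and 236437, 231027 and 219618 in ACh. It fell by 0.24 (SE 0.08), and the call was lost without ACh replicate 2 (limma adjusted p = 0.0505) and without ACh replicate 3 (limma adjusted p = 0.0607). MT-CO2 had 101180, 118067 and 98907 in Control and 89234, 86004 and 84435 in ACh, and fell by 0.29 (SE 0.07). MT-CO3 had 110020.2, 120285 and 103992 in Control and 105374, 96608 and 101267 in ACh. This was the only mitochondrial messenger whose groups overlapped, with a log2 fold change of -0.14 that became -0.08 without Control replicate 2 and did not pass the authors' adjusted p (0.136 in the authors' deposited table).

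Complex V takes 2 subunits from the mitochondrial genome, MT-ATP8 and MT-ATP6, which share a messenger RNA and whose annotated intervals overlap by 46 bases. MT-ATP8 (ENSG00000228253, 8366 to 8572) had 221, 287 and 275 normalised reads in Control and 146, 110 and 144 in ACh. No library of ACh reached the lowest Control library, and MT-ATP8 fell by 0.97 on the log2 scale (SE 0.13, limma adjusted p = 6.89e-06), the largest fall among the messenger RNAs. MT-ATP6 (ENSG00000198899, 8527 to 9207) had 65966, 73291 and 62447 in Control and 61000.0, 59683 and 54007 in ACh, a log2 fold change of -0.21 that did not pass the authors' adjusted p (0.0634 in the authors' deposited table). Reads of MT-ATP8 amounted to 0.335%, 0.392% and 0.440% of those of MT-ATP6 in Control and 0.239%, 0.184% and 0.266% in ACh. Per kb of gene, MT-ATP6 stood 78.3-fold above MT-ATP8 in Control. How reads in the overlap were counted is not given in the sources used here, and the value of MT-ATP8 rests on 97 to 358 reads per library.

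The RNAs of the mitochondrial genome that encode no protein went both ways. MT-RNR2, the large ribosomal RNA of mitochondria (ENSG00000210082, 1671 to 3229), had 120402, 133468 and 123822 normalised reads in Control and 116320, 111939 and 110403 in ACh. The groups did not overlap and MT-RNR2 fell by 0.16 (SE 0.06, limma adjusted p = 0.0216). This call was lost on leaving out each ACh replicate in turn (limma adjusted p = 0.0506 to 0.0864) and on adjustment over the 11193 tests that the authors' adjusted p-values imply (limma adjusted p = 0.0577). It was also lost with equal totals over nuclear protein-coding genes (log2 fold change -0.090) and over the listed genes (-0.076), a scaling under which 52.4% of the table passed both tests, 23.6% lower and 28.8% higher. The small ribosomal RNA MT-RNR1 has no value here.

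**Figure D2:**
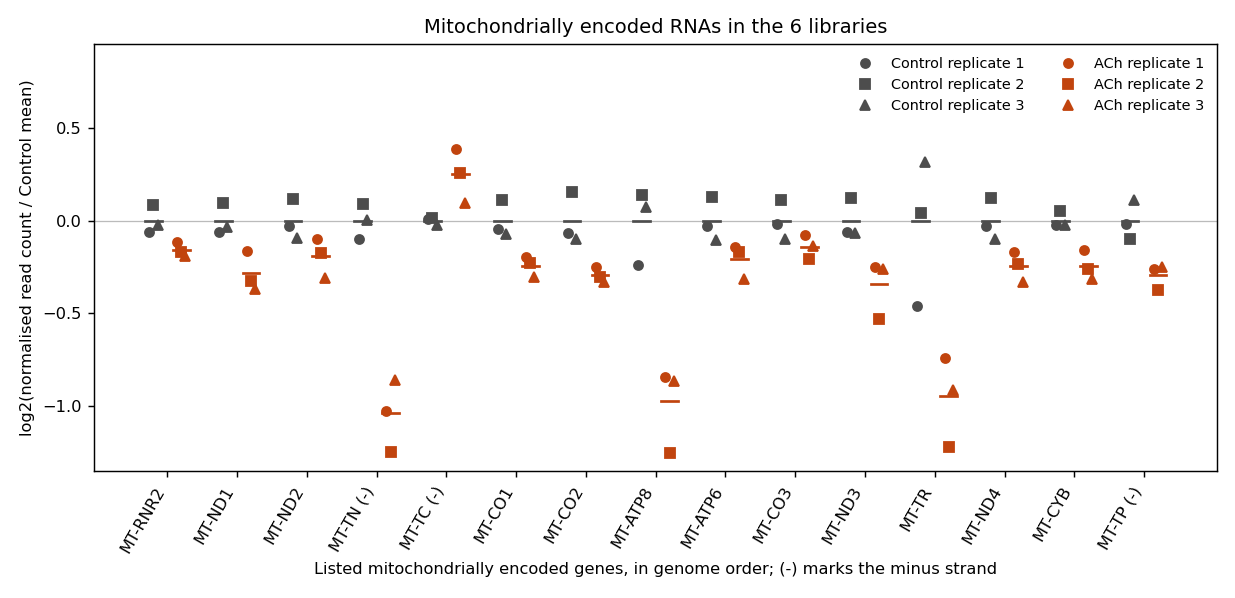
Normalised read counts of the 15 mitochondrially encoded genes in each library, as log2 of the ratio to the Control mean of the gene, in genome order. Horizontal bars mark the group means, and MT-TN, MT-ATP8 and MT-TR lie lowest in ACh while MT-TC is higher in all 3 ACh libraries.

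Of the transfer RNA genes 4 were listed. MT-TN, for asparagine, and MT-TC, for cysteine, are neighbours on the minus strand with 31 bases between them. MT-TN (ENSG00000210135, 5657 to 5729) had 4699, 5354 and 5051 normalised reads in Control and 2474, 2126 and 2776 in ACh, and fell by 1.04 on the log2 scale (SE 0.06, limma adjusted p = 2.86e-10). MT-TC (ENSG00000210140, 5761 to 5826) had 1581, 1582 and 1546 in Control and 2046, 1877 and 1676 in ACh, and rose by 0.24 (SE 0.05). The neighbours thus moved in opposite directions, and the ratio of MT-TN to MT-TC was 2.97, 3.38 and 3.27 in Control against 1.21, 1.13 and 1.66 in ACh. MT-TC was the only mitochondrially encoded member with a higher mean in ACh.

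The other listed transfer RNA genes, MT-TP and MT-TR, were lower in ACh. MT-TP, for proline, on the minus strand beyond the end of MT-CYB, had 363, 344 and 398 normalised reads in Control and 308, 284 and 309 in ACh, and fell by 0.29 (SE 0.08). MT-TR, for arginine, begins at the base after MT-ND3 and had 28.6, 40.6 and 49.1 in Control and 23.6, 17.0 and 21.0 in ACh. It rested on 15 to 64 reads per library and had a log2 fold change of -0.89. Its adjusted p in the authors' deposited table was exactly 1, as for 234 genes of the table, so it could not pass both tests. No source used here says whether counting used strand, so reads of a transfer RNA could not be told apart from those of uncut precursors or of transcripts of the opposite strand.

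Control replicate 2 had the highest Control value for all 10 listed messenger RNAs, and ACh replicate 1 the highest ACh value for all 10. The lowest value was that of Control replicate 3 for 7 and Control replicate 1 for 3 of them, and that of ACh replicate 3 for 7 and ACh replicate 2 for 3. The libraries were also scaled to equal totals over the mitochondrial genes, a setting chosen after seeing the data, which shifts all genes alike and shows each against the mitochondrial total. MT-TN then stood at a log2 fold change of -0.82, MT-ATP8 at -0.75 and MT-TC at 0.47, and these 3 genes passed both tests, where 1.07% of the table did as lower and 28.9% as higher. MT-TR stood at -0.67. The other 11 lay between -0.12 (MT-ND3) and 0.08 (MT-CO3). This scaling raised the median of all listed genes from -0.10 to 0.13.

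Nuclear subunits of complex I accept electrons from NADH and form the matrix arm, with further accessory subunits around the membrane arm. Of the 37 nuclear subunit genes looked for 15 were listed, of which 11 fell and 1 rose, with a median log2 fold change of -0.18. Of the 7 core subunits 4 were listed and 3 fell. These were NDUFS7 and NDUFS8, which hold iron-sulfur clusters, and NDUFV1, which binds NADH, with log2 fold changes of -0.28, -0.18 and -0.14. The value of NDUFS7 became -0.18 without ACh replicate 3, with the call kept. All 3 calls were lost with the GC trend removed, at -0.033 for NDUFS7, -0.011 for NDUFS8 and, with its direction turned, 0.063 for NDUFV1. NDUFV1 also lost its call with equal totals over the listed genes (-0.059). NDUFS1, a further core subunit with iron-sulfur clusters, had higher values in ACh, with a log2 fold change of 0.15, and did not pass the authors' adjusted p (0.0616 in the authors' deposited table). It stood at -0.027 with the GC trend removed.

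Of the 30 accessory subunits 11 were listed, of which 8 fell and 1 rose. NDUFA11, an accessory subunit of the membrane arm (ENSG00000174886, chromosome 19, 5891276 to 5904006), had 310.0, 352 and 365 normalised reads in Control and 229, 258 and 230 in ACh. The groups stood apart, and it fell by 0.52, more than any other nuclear member (SE 0.09, limma adjusted p = 0.00012). NDUFA2, of the matrix arm (ENSG00000131495, chromosome 5, 140638740 to 140647785), had 724, 767 and 788 in Control and 606, 586 and 555 in ACh, and fell by 0.38 (SE 0.06). NDUFS6, a zinc-binding accessory subunit (ENSG00000145494, chromosome 5, 1801400 to 1816605), had 1044, 1096 and 1074 in Control and 906, 816 and 830.1 in ACh, and fell by 0.33 (SE 0.05). These 3 genes also kept their calls with the trend by base composition removed, described below. The membrane-arm subunits NDUFB7, NDUFB2, NDUFB4, NDUFB9 and NDUFB10 fell with log2 fold changes from -0.22 to -0.16. With equal totals over the listed genes NDUFB2 (-0.13), NDUFB4 (-0.11) and NDUFB10 (-0.079) lost their calls. With the GC trend removed NDUFB2 kept its call and NDUFB4 (-0.096) lost it, and NDUFB7 (0.019), NDUFB9 (0.0088) and NDUFB10 (0.022) lost theirs with the direction turned. NDUFA8 and NDUFB11, at -0.14 and -0.15, did not pass both tests. NDUFA8 turned to 0.025 with the GC trend removed, and NDUFB11 became -0.10 without ACh replicate 3.

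NDUFA5 was the only complex I gene that rose. This accessory subunit of the matrix arm (ENSG00000128609, chromosome 7, 123536997 to 123558255) had 610.0, 596 and 557 normalised reads in Control and 739, 706 and 690 in ACh. All ACh libraries were above all Control libraries, and it rose by 0.28 (SE 0.06, limma adjusted p = 0.000699). Its log2 fold change was 0.28 with the trend by base composition removed as well. It was the only nuclear member that passed both tests as higher in that fit, which the rule for a call limits. COX4I1 (0.13, limma adjusted p = 0.0135) and ATP5F1C (0.11, limma adjusted p = 0.0324) were also higher past limma there. Neither passed the authors' adjusted p, which was not corrected for the GC trend.

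Complex II, which oxidises succinate and is a citric acid cycle enzyme too, had 1 of its 4 genes in the table. SDHA, the flavoprotein subunit, had 2736, 2709 and 2745 normalised reads in Control and 2604, 2562 and 2439 in ACh. The groups did not overlap, but the log2 fold change of -0.11 did not pass the authors' adjusted p (0.0672 in the authors' deposited table). SDHA stood at -0.19 with the GC trend removed (limma adjusted p = 0.000198), where the authors' adjusted p was not corrected for that trend. With equal totals over the listed genes it stood at -0.028 (limma adjusted p = 0.484).

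Complex III, which passes electrons from coenzyme Q to cytochrome c, had 4 of the 10 nuclear genes looked for in the table, and all 4 fell. CYC1, the haem-bearing cytochrome c1 (ENSG00000179091, chromosome 8, 144095027 to 144097525), had 6716, 6888 and 6487 normalised reads in Control and 5704, 5699 and 5428 in ACh. It fell by 0.26 (SE 0.03, limma adjusted p = 6.98e-06), and 9.91e-10, its adjusted p in the authors' deposited table, was the lowest of the nuclear members. UQCRQ, a small membrane subunit, had 2128, 2286 and 2240 in Control and 1879, 1777 and 2019 in ACh, and fell by 0.23 (SE 0.04). UQCRC1, a large matrix-side core protein, had 4947, 4810 and 4820 in Control and 4554, 4328 and 4426 in ACh, and fell by 0.13 (SE 0.03). UQCRH, the hinge protein that binds cytochrome c1, fell by 0.12. The calls of UQCRC1 and UQCRH were lost with equal totals over the listed genes, at log2 fold changes of -0.052 and -0.042. After removal of the GC trend UQCRQ and UQCRH kept their calls, while CYC1 (-0.071) lost it and UQCRC1 (0.088) lost it with the direction turned.

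Complex IV subunits from the nucleus surround the mitochondrial catalytic core. Of the 19 genes looked for 6 were listed, of which 3 fell and 1 rose. COX5B, a zinc-binding subunit (ENSG00000135940, chromosome 2, 97646040 to 97648383), had 2142, 2126 and 2063 normalised reads in Control and 1854, 1854 and 1672 in ACh, and fell by 0.24 (SE 0.04, limma adjusted p = 0.000132). COX6A1 had 1214, 1235 and 1177 in Control and 1136, 1068 and 927 in ACh and fell by 0.22, a value that became -0.13 without ACh replicate 3, with the call kept. COX8A had 3388, 3412 and 3432 in Control and 3145, 2997 and 2762 in ACh, and fell by 0.20 (SE 0.04). COX5B kept its call with the GC trend removed, while COX6A1 (0.018) and COX8A (0.030) lost theirs with the direction turned. COX4I1, a regulatory subunit, and COX6B1, on the intermembrane side, had log2 fold changes of -0.09 and -0.11 and did not pass both tests. COX4I1 became -0.053 without ACh replicate 3 and turned to 0.13 with the GC trend removed.

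COX6C was the complex IV gene that rose. This small membrane subunit had 2719, 2574 and 2478 normalised reads in Control and 2980.0, 2709 and 2822 in ACh. The lowest ACh library lay below the highest Control library, and the gene rose by 0.13 (SE 0.04). The call was lost without ACh replicate 1 (log2 fold change 0.10, limma adjusted p = 0.0504) and with the GC trend removed, where the direction turned (-0.011).

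Of complex V 6 nuclear genes were listed, of which 3 fell and 3 did not pass both tests. ATP5F1D, the delta subunit of the rotating stalk (ENSG00000099624, chromosome 19, 1241746 to 1244826), had 1942, 2040.5 and 1929 normalised reads in Control and 1628, 1627 and 1554 in ACh, and fell by 0.30 (SE 0.04, limma adjusted p = 9.02e-06). ATP5F1E, the epsilon subunit of the same stalk, had 1774, 1869 and 1741 in Control and 1626, 1460 and 1676 in ACh, and fell by 0.18 (SE 0.05). ATP5ME, the e subunit in the membrane, had 298, 386 and 348 in Control and 235, 235 and 299 in ACh. It fell by 0.42 (SE 0.11), and its highest ACh library lay just above its lowest Control library. All 3 calls were lost with the GC trend removed, at -0.059 for ATP5F1D, -0.011 for ATP5F1E and -0.27 for ATP5ME. ATP5F1E also lost its call with equal totals over the listed genes (-0.099).

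The remaining complex V genes did not share a direction. ATP5F1C, the gamma subunit that forms the shaft of the rotor together with delta and epsilon, had 2472, 2494 and 2465 normalised reads in Control and 2745, 2727 and 2568 in ACh. All ACh values were higher, with a log2 fold change of 0.11 and, in the authors' deposited table, an adjusted p of 0.0555, just short of the limit. ATP5MF, a membrane subunit, and ATP5IF1, the inhibitor that blocks reverse rotation, had log2 fold changes of -0.14 and -0.17 and did not pass both tests. These became -0.09 without Control replicate 1 and -0.11 without ACh replicate 1.

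Cytochrome c, the mobile carrier between complexes III and IV that also triggers apoptosis when released, was higher in ACh. Its gene CYCS (ENSG00000172115, chromosome 7, 25120091 to 25125361) had 3917, 3999.8 and 3841 normalised reads in Control and 4259, 4441 and 4199.7 in ACh. The groups did not overlap and CYCS rose by 0.13 (SE 0.03, limma adjusted p = 0.00157). With the GC trend removed the call was lost and the direction turned (-0.084).

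Assembly factors of complex I went both ways. Of the 17 assembly genes that carry the NDUFAF or COX names 3 were listed. NDUFAF8 had 1033, 1050.2 and 979 normalised reads in Control and 844, 797 and 821 in ACh, and fell by 0.31 (SE 0.05). NDUFAF7, a methyltransferase that modifies a core subunit during assembly, had 364, 338 and 389 in Control and 459, 411 and 443 in ACh, and rose by 0.27 (SE 0.08), and its adjusted p in the authors' deposited table was 0.0496, just inside the limit. NDUFAF4, at 343, 380.5 and 376 in Control and 449, 454 and 401 in ACh, had a log2 fold change of 0.25 and did not pass the authors' adjusted p (0.0701 in that table). With the GC trend removed both calls were lost, at -0.13 for NDUFAF8 and 0.082 for NDUFAF7.

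**Figure D3:**
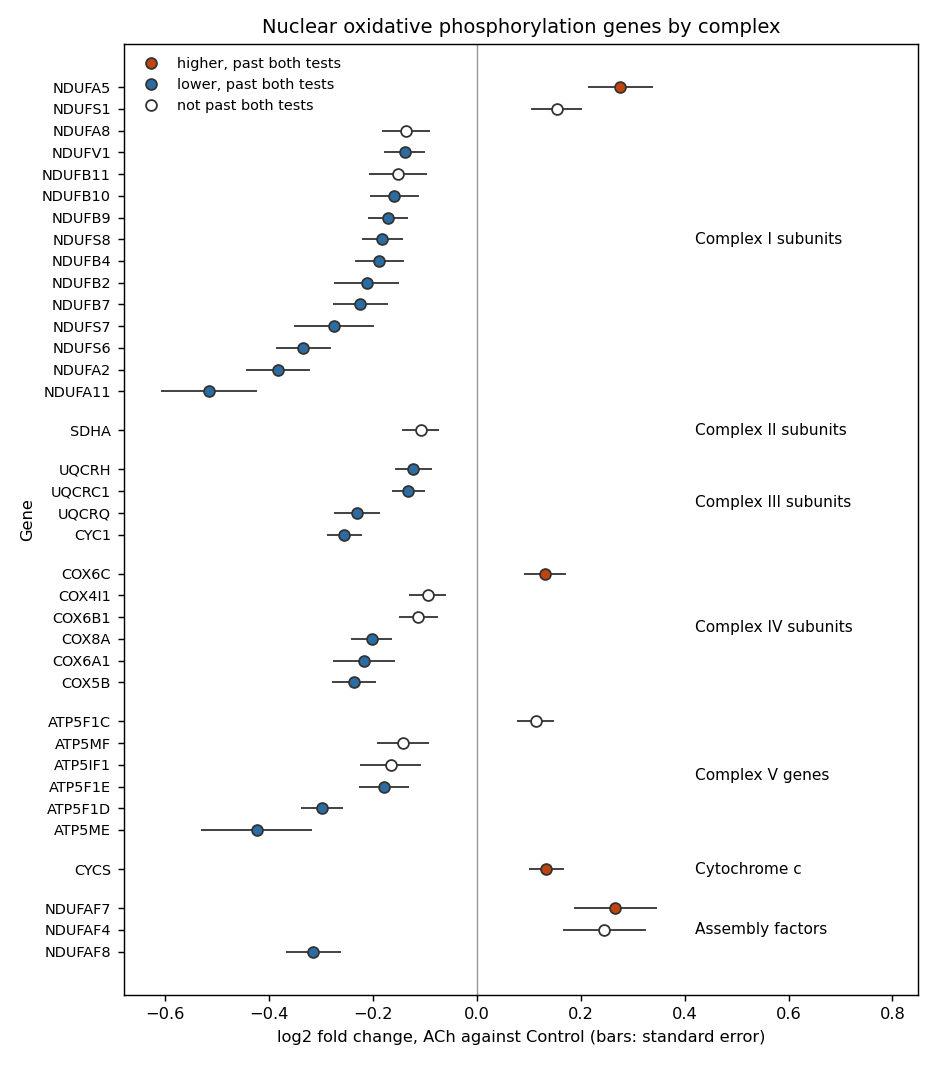
Log2 fold change of the 36 nuclear members, ACh against Control, with the standard error from limma and n = 3 libraries per group, grouped by complex. Filled points passed both tests, and the members to the right of 0 are NDUFA5, NDUFS1, COX6C, ATP5F1C, CYCS, NDUFAF7 and NDUFAF4.

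Base composition and gene length moved with direction among the nuclear members. GC content was read from mouse genes matched by symbol, since no human sequence was used here. The 22 nuclear members that fell had a median GC content of 55.4% and a median gene length of 1689 bases, and the 4 that rose had medians of 45.9% and 4054 bases. Over all listed genes those that fell had medians of 56.9% and 4027 bases, and those that rose had 43.6% and 7130.0 bases. The Spearman correlation between log2 fold change and GC content was -0.48 across the 36 nuclear members and -0.76 across the 3789 listed genes with a GC value. Genes are not independent replicates, and this is a description. The table was split into 5 bins of GC content. In the 2 bins of highest GC content, with 10 and 7 nuclear members, every one of these had a lower mean, where 3.30% and 0.264% of all listed genes had higher ones. In the lowest bins 2 of 2 and 3 of 4 nuclear members had higher means, where 95.6% and 93.9% of all listed genes did. In the middle bin 11 of 13 nuclear members were lower, where 43.2% of all listed genes were higher.

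**Figure D4:**
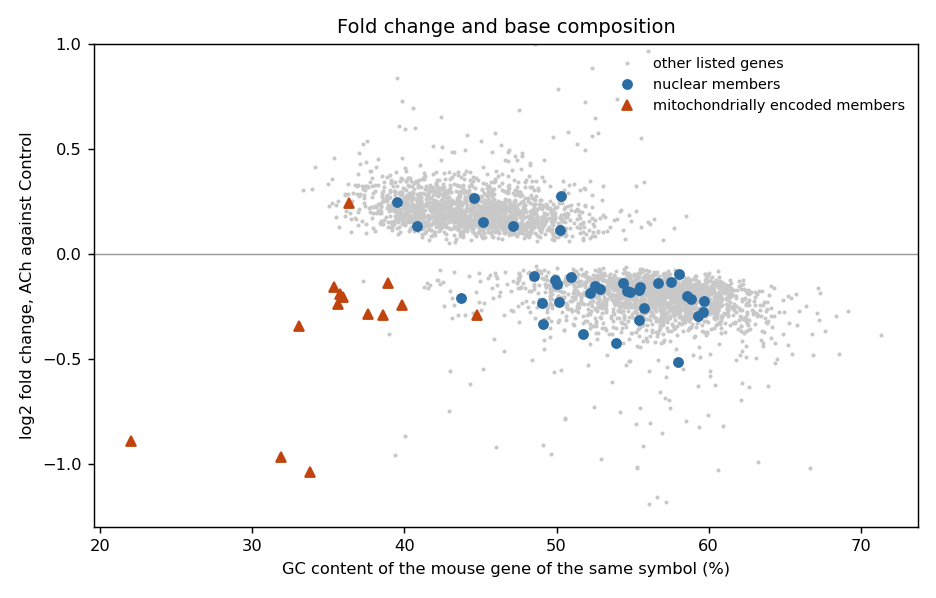
Log2 fold change, ACh against Control, against GC content in percent (taken from mouse genes matched by symbol), for 50 members and 3739 other listed genes, of which 23 lie outside the axis. Nuclear members (blue) lie among the other genes, and the mitochondrially encoded ones (red) lie at low GC content and, apart from MT-TC, below 0.

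The mitochondrially encoded genes lay elsewhere on that scale. The mouse counterparts of 14 of them had a median GC content of 35.9%, within the lowest of these bins, and 13 of the 14 had lower means in ACh. MT-CYB had no GC value, and the base composition of the human genes themselves was not measured.

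The GC trend of each library was also removed by local regression. In that fit 11.2% of the 3789 genes passed both tests, 6.04% lower and 5.17% higher. Of the 26 nuclear calls 8 were kept with their sign, 9 changed sign and the others lost the call in the same direction, and the median of the nuclear members went from -0.17 to -0.04. The nuclear genes that kept their calls were NDUFA11 (-0.29), NDUFA2 (-0.31), NDUFS6 (-0.39), NDUFB2 (-0.40), UQCRQ (-0.24), UQCRH (-0.14), COX5B (-0.30) and NDUFA5 (0.28). None of the 3 complex V calls and neither of the assembly factor calls was kept. In that fit 3 of the 6 complex V genes and 1 of the 3 assembly factors had an unadjusted limma p under 0.05. The adjusted limma p was under 0.05 for 2 complex V genes, ATP5F1C (0.11) and ATP5MF (-0.15). These did not pass the authors' adjusted p, which was not corrected for the GC trend. Of the 10 mitochondrial calls with a GC value 9 were kept, all lower, and the median of the 14 genes with such a value went from -0.26 to -0.47. MT-TC lost its call at 0.04. Whether base composition has a part in the nuclear falls was not tested beyond this removal.

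**Figure D5:**
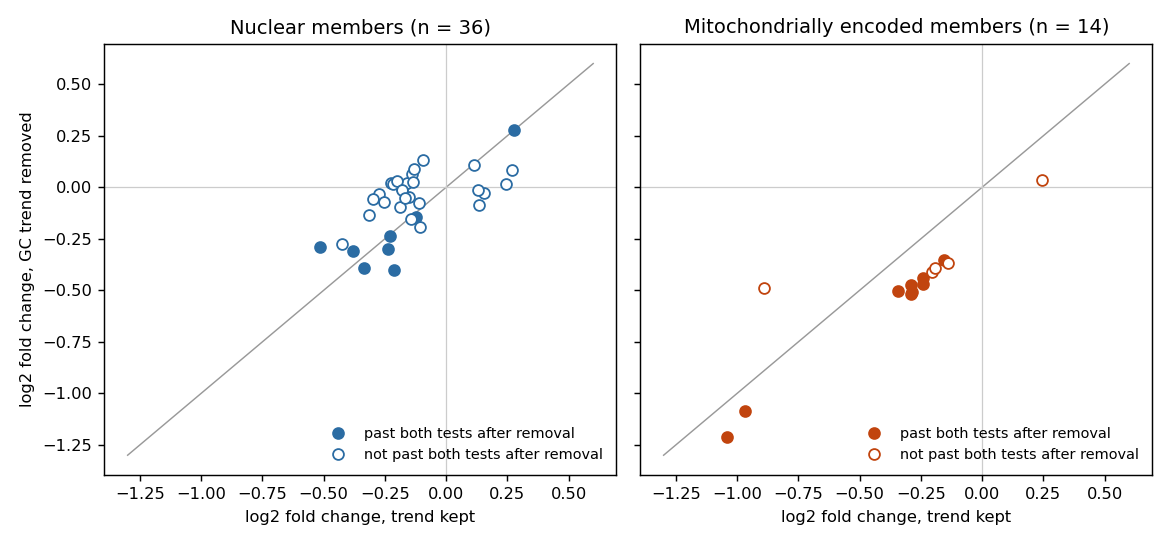
Log2 fold change of each member with the GC trend kept (horizontal axis) and removed (vertical axis), for 36 nuclear and 14 mitochondrially encoded members, with the line of equality. The median of the nuclear members moves from -0.17 to -0.04, and the mitochondrially encoded ones, apart from MT-TR, lie below the line. MT-TR has the lowest GC value of the listed genes (22.1%), at the edge of the regression, so its move is uncertain.

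Other genes of the pathway were taken from lists of symbols, described by counts. Of 42 further assembly factors 7 were listed, of which 4 fell and 1 rose (median log2 fold change -0.15). UQCC3, which assembles complex III, and TMEM186, which assembles complex I, fell by 0.33 and 0.31, and HIGD1A, a hypoxia-inducible factor of the respiratory chain, rose by 0.30. TMEM186 and HIGD1A kept their calls with the GC trend removed, and UQCC3 (-0.22) lost it. Of 34 genes that replicate, transcribe and process mitochondrial DNA and RNA 13 were listed, of which 7 rose and 6 fell (median 0.15). MTERF1, a transcription termination factor, rose by 0.42 from 229 ± 12.4 to 308 ± 16.3 (SD, n = 3). TRMT10C, a subunit of the enzyme that cuts the 5′ ends of mitochondrial transfer RNAs, rose by 0.31. HSD17B10, a subunit of the same enzyme, fell by 0.21, and the mitochondrial topoisomerase TOP1MT fell by 0.24. None of these 13 kept its call in limma with the GC trend removed, where 4 had an unadjusted p under 0.05.

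Among 13 regulators of respiratory gene transcription 6 were listed, of which 4 rose and 1 fell. GABPA and GABPB1, which form the nuclear respiratory factor GABP, each rose by 0.29, and ESRRA, a nuclear receptor for mitochondrial genes, fell by 0.25. None of the 6 passed both tests with limma and the GC trend removed, where 1 had an unadjusted p under 0.05 and ESRRA turned to 0.033. Of 26 genes of pyruvate dehydrogenase and the citric acid cycle 9 were listed, of which 4 rose and 3 fell. PDK1, a hypoxia-inducible kinase that shuts off pyruvate dehydrogenase, had 219, 256 and 233 normalised reads in Control and 346, 350 and 319 in ACh and rose by 0.52 (SE 0.09), a call it kept with the GC trend removed. Its relative PDK2 fell by 0.33, IDH2 fell by 0.19, and DLD rose by 0.18. These 3 lost their calls with the GC trend removed, at -0.12 for PDK2, -0.015 for IDH2 and, with the direction turned, -0.035 for DLD.

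Of 10 carrier and porin genes 3 were listed. SLC25A6 and SLC25A5, which exchange ADP for ATP across the inner membrane, fell by 0.17 and 0.12, calls that both kept with the GC trend removed. Of 19 genes for coenzyme Q synthesis and electron donors to it 4 were listed. GPD2, which feeds electrons from glycerol phosphate, rose by 0.21 and COQ8B, of coenzyme Q synthesis, fell by 0.21. Both lost their calls with the GC trend removed, at 0.044 for GPD2 and, with the direction turned, 0.020 for COQ8B.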

How the data were processed

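RNA of KYSE30 was made into 3 Control and 3 ACh libraries with a SMARTer kit, per the labels' protocols. Bowtie 0.12.2 and the builds mm8 and mm10, both of mouse, appear in the submitters' processing notes with no role given. The table is of human genes, so coordinates are those of the file, its human build and counter being not given in the sources used here. The deposited values are a signal, gene counts that the authors divided by one factor per library. This was read from the values, of which 100% were whole multiples of a step, within 0.1 of a step. The table also holds the authors' own log2 fold changes, p-values and adjusted p-values, per the file headers. Of these only adjusted p-values are printed, and the log2 fold changes in the text are those of limma. The adjusted p-values imply 11193 tests.

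limma 3.58.1 (limma-trend, R 4.3.3) was fitted to log2(value + 1) of all 4195 genes with group as the only term. A gene was called at an adjusted p of 0.05 in limma and in the authors' table. Alternatives were a lower-quartile filter, a pseudocount of 0.1, other scalings, adjustment over 11193 tests, either test alone, removal of the GC trend (local regression, span 0.3; GC of mouse GENCODE M21 transcripts for 3789 genes), a replicate block, leaving out each library and, chosen after seeing the data, edgeR 4.0.16 on the recovered reads, which with the authors' adjusted p called 2677 genes, as limma did. The authors' adjusted p was not recomputed for any alternative, and limma alone called nearly all genes, so this agreement was largely set in advance. Per-library values are given for the mitochondrially encoded genes, for up to 3 called members per nuclear group by size of change, and for members against their group. SDHA, ATP5F1C, NDUFAF4 and PDK1 were added after their values were seen. Of each other list up to 2 called members per direction are named. Members and lists were chosen with earlier results of these data known. No sequence is printed, since no human one was used.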

Additional observations from a re-analysis of the deposited data

How the results depend on the processing

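The recovered reads of a member ranged from 15 to 335628 per library, and changes in genes such as MT-TR are limited by few reads. Under the pseudocount of 0.1, the authors' adjusted p alone and edgeR on the recovered reads together with it, all 51 members kept direction and call. The authors' adjusted p was not recomputed in these, and limma alone called 99.6% of the table, so the calls could hardly change. Of all listed genes 63.8% passed both tests, and with the GC trend removed 11.2% of the 3789 genes with a GC value did. Of 32 nuclear subunit genes (cytochrome c included) 24 passed both tests, and 8 did with the GC trend removed. Of the 4 nuclear assembly and regulator genes (ATP5IF1 included) 2 passed. The lower-quartile filter left only 2 of the 4 to be tested, and 1 of these passed. With the GC trend removed 0 passed (limma, 1 at an unadjusted p under 0.05). All 4 passed by limma alone (99.6% of the table) or by edgeR alone adjusted over 11193 tests (97.4%). Of the 10 mitochondrial protein genes 7 passed, and 1 with equal totals over mitochondrial genes. Of the 5 mitochondrial RNA genes 4 passed, and 2 with that scaling. Under it 1.07% of all listed genes passed as lower and 28.9% as higher.

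With the GC trend removed, log2 fold changes turned to 0.13 for COX4I1, 0.018 for COX6A1, 0.030 for COX8A, 0.025 for NDUFA8, 0.022 for NDUFB10, 0.019 for NDUFB7, 0.0088 for NDUFB9, 0.063 for NDUFV1 and 0.088 for UQCRC1, and to -0.011 for COX6C, -0.084 for CYCS and -0.027 for NDUFS1. With equal totals over mitochondrial genes they turned to 0.018 for MT-ATP6, 0.085 for MT-CO3, 0.033 for MT-ND2 and 0.067 for MT-RNR2. The cause was not tested. Equal totals over the listed genes ended 8 member calls (NDUFB2, NDUFB4, NDUFB10, NDUFV1, UQCRC1, UQCRH, ATP5F1E and MT-RNR2) and equal totals over nuclear protein-coding genes 5 of them (NDUFB10, NDUFV1, UQCRC1, UQCRH and MT-RNR2), and neither turned a direction. Over the whole table equal totals over the listed genes gave 1207 higher and 990 lower calls, against 1207 and 1470 in the main fit.

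Leaving out a library gave 23 to 24, 2, 6 to 7 and 3 to 4 calls in the groups above, in the same order. The authors' adjusted p was still that of all 6 libraries, which limits how far these counts could move. The replicate numbers of the labels did not pair the libraries by the limit of 0.1, with correlations of 0.0821, 0.0555 and 0.0471 between deviations of same-numbered libraries, although each library correlated best with its own number. The fit with the replicate block called 24, 2, 7 and 4 genes, as without it, also with the authors' adjusted p unchanged.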

Other observations

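Nuclear copies of mitochondrial genes were listed beside the members. MTCO1P12, a copy of part of the mitochondrial genome on chromosome 1 (631074 to 632616), had 420, 621 and 570 normalised reads in Control and 427, 374 and 448 in ACh. Its log2 fold change was -0.35 past both tests, against -0.24 for MT-CO1. The groups of MTCO1P12 overlapped, with Control replicate 1 below ACh replicates 1 and 3. MTND4P12, a processed copy on chromosome 5, had 101, 23.3 and 60.7 in Control and 20.4, 21.5 and 29.3 in ACh, with Control replicate 1 far above the other libraries. MTND5P28, a processed copy on chromosome 2, went the other way at very low values. It had 0, 2.03 and 3.07 in Control and 4.29, 11.3 and 8.38 in ACh. Neither MTND4P12 nor MTND5P28 passed both tests. The ratio of MT-CO1 to MT-RNR2 was 2.18, 2.19 and 2.08 in Control and 2.03, 2.06 and 1.99 in ACh. The groups did not overlap, with a gap smaller than the spread within Control (SD 0.061). Both genes were listed for a difference between these same libraries. The kinase genes PDK1 and PDK2, which act on the same enzyme, had log2 fold changes of 0.52 and -0.33.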
